A study of Mus musculus with 15 samples.

Results

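Mitosis and spindle genes are the genes whose products drive a cell into mitosis, build the spindle, attach chromosomes to it and divide the cell. A list of 34 such genes was followed across 5 lines of mouse 4T1 mammary carcinoma cells, and 33 of them had a probe set among the 19937 genes measured. Expression of Ccnb1 was not analysed here, but its promoter window is counted below. Each gene is represented by the brightest of its probe sets over all arrays.

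Gene expression was measured on 15 microarrays, 3 per line. S42D and S42A were Twist1-depleted 4T1 cells carrying mutant Twist1, in which a serine was replaced by aspartate, a residue often used to mimic phosphoserine, or by alanine, which cannot be phosphorylated. WT was the depleted line carrying wild-type Twist1. Tw1KD was the depleted line itself, and parental was the line labelled parental 4T1 cells. Twist1 is a helix-loop-helix transcription factor known for its part in epithelial-mesenchymal transition. The medium of all 5 lines, parental included, held puromycin (4 µg/ml) and G418 (800 µg/ml) in DMEM, and RNA was taken at 70% confluency. The S42D arrays are identified by their titles alone, because their genotype entry reads S42A\D. How Twist1 was depleted, how the constructs were introduced and whether a line is a single clone are not given in the sources used here. Nothing states that the 3 arrays of a line came from separate cultures, so the p-values measure only the spread between these arrays.

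Entry into mitosis is driven by Cdk1 bound to cyclins A and B, switched on by Cdc25 phosphatases and reinforced by Plk1 and the Aurora kinases. The spindle checkpoint holds the anaphase-promoting complex (APC/C) inactive until every kinetochore is attached, after which Cdc20 and Ube2c take part in the destruction of cyclin B. Transcription of these genes peaks late in the cell cycle. It is known to depend on a promoter element called the CHR, bound by the MuvB complex with B-Myb or, in resting cells, as part of DREAM, often beside CCAAT boxes bound by NF-Y. FoxM1 is recruited to the same complex.

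The promoters of the members carry these elements more often than promoters in general, as a description of their letters. Windows of 300 bases (250 before to 50 after the transcript start, RefSeq, GRCm38.p6) were matched for 28 of the 34 members, giving 29 windows. Ccna2, Cdc25c, Foxm1, Aurkb, Kif20a and Tpx2 had none. The CHR letters TTTGAA or TTCGAA, on either strand, stood in 23 of the 29 windows (79.3%), against 19.2% of all 32851 windows. Within 50 bases of the start they stood in 21 (72.4%), against 5.31% of all windows. CCAAT on either strand stood in 23 windows (79.3%), against 37.4% of all, and both elements in 20 (69%), against 7.52% of all. E2F letters (TTGGCGC or TTCCCGC, either strand) stood in 3 (10.3%), against 6.81% of all. CHR and CCAAT matches overlapped each other in 48 of all windows and CCAAT and E2F matches in 147, of which 1 was a member's. In 39 windows of DNA replication genes the E2F share was 48.7% and the CHR share 17.9%.

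The stretches below are the 170 bases that end 50 after the start, with CHR and CCAAT letters in capitals, and were chosen after the expression values were seen. The Kif4, Cenpf, Kif23, Plk1, Aurka and Hmmr promoters are shown because they hold both elements and the genes moved strongly between lines. They lie at chrX:100625945-100626114 (plus strand), chr1:189688037-189688206 (minus strand), chr9:61946750-61946919 (minus strand), chr7:122159315-122159484 (plus strand), chr2:172370521-172370690 (minus strand) and chr11:40733388-40733557 (minus strand).
Kif4: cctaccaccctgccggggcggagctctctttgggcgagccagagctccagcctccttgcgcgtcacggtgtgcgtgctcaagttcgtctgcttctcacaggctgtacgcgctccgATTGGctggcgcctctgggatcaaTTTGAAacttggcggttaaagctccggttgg
Cenpf: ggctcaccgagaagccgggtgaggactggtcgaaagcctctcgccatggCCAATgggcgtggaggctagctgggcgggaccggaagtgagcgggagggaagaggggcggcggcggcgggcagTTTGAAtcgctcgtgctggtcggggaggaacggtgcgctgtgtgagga
Kif23: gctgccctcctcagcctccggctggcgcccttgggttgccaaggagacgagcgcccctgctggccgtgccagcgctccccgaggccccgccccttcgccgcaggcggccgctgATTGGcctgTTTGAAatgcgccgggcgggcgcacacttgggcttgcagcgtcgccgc
Plk1: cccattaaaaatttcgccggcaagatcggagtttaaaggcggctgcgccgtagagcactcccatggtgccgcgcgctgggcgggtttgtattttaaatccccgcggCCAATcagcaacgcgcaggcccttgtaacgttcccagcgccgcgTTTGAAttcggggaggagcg
Aurka: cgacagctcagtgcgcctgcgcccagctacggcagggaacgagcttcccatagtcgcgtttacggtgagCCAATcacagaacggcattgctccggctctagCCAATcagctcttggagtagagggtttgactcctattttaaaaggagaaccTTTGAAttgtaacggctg
Hmmr: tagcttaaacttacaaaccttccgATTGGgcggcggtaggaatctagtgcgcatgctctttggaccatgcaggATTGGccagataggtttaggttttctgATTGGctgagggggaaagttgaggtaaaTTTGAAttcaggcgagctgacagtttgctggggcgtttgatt

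Kif11, at chr19:37376262-37376431 (plus strand), is shown because it holds both elements and yet moved least among the members when Twist1 was put back. Its CHR letters are on the opposite strand.
Kif11: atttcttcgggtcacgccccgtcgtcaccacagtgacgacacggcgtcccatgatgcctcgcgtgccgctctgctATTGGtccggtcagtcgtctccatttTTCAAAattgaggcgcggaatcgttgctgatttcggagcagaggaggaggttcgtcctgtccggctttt

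Nek2, at chr1:191821353-191821522 (plus strand), and Nuf2, at chr1:169531415-169531584 (minus strand), are shown because neither holds CHR letters in its window although both were among the 5 members with the largest rises in WT against Tw1KD (in S42D, Nek2 was at the member median).
Nek2: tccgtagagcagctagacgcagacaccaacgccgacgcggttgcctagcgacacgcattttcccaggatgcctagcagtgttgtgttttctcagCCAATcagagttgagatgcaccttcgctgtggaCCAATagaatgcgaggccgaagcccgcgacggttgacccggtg
Nuf2: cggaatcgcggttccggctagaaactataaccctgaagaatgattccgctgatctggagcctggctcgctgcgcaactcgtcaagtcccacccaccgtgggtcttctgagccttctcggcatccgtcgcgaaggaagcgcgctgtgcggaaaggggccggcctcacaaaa

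**Figure D1:**
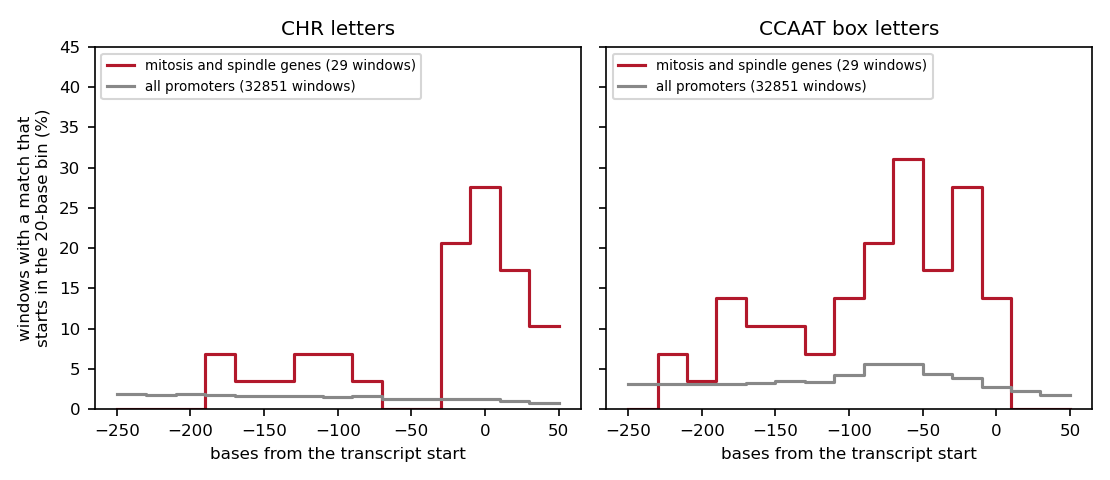
Share of promoter windows (%) with a match starting in each 20-base bin, by distance in bases from the transcript start, for the CHR letters (left) and CCAAT letters (right), in 29 member windows (red) and all 32851 windows (grey). The CHR letters of the members gather around the start and the CCAAT letters mostly just upstream of it.

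Among the members, the medians of those with and without the letters lay close in some comparisons and apart in others. Members with CHR letters had the higher median in the comparisons against Tw1KD and the lower median in those against parental cells. For CCAAT letters the direction also differed among the comparisons against Tw1KD. The 22 measured members with CHR letters had a median log2 difference of 0.81 for WT against Tw1KD, and the 5 with a window but no CHR letters had 0.76. For S42A against Tw1KD these medians were 0.90 and 0.72, and for S42D against Tw1KD 0.49 and 0.46. The 21 members with CCAAT letters and the 6 with none had medians of 0.80 and 0.99 for WT against Tw1KD, 0.93 and 0.64 for S42A against Tw1KD, and 0.49 and 0.43 for S42D against Tw1KD. For S42D against WT the CCAAT medians were -0.28 and -0.56. No test was made of these gaps. These are descriptions of the letters, not of binding.

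The arrays were alike in overall signal, with medians of 6.57 to 6.72 on the log2 scale and pairwise correlations of at least 0.9968 for arrays of 1 line and at most 0.9871 for arrays of different lines. The members were bright, the dimmest (Cdc25c) averaging 8.50 over all arrays, and their median within-line SD was 0.05, against 0.09 for all genes. Twist1 itself read 9.07, 8.96 and 8.97 in S42D, 8.60, 8.71 and 8.80 in S42A, 8.35, 8.49 and 8.16 in WT, 7.47, 7.23 and 7.35 in Tw1KD, and 9.01, 9.03 and 9.07 in parental cells. Tw1KD was thus the lowest line on every array. Among the 3 lines with reintroduced Twist1, S42D was highest and WT lowest. Whether the probe set reads the introduced transcripts was not tested. The simple keratins Krt8 and Krt18 were bright in all 5 lines, with line means of 12.89 to 13.18 and 12.31 to 12.71. Cdh1, the epithelial cadherin, averaged 7.50 in S42D, 6.34 in S42A, 8.52 in WT, 11.46 in Tw1KD and 10.31 in parental cells. Krt19 averaged 8.62, 6.01, 8.74, 11.10 and 10.07 in that order of lines, and Epcam 5.63, 5.55, 5.66, 9.76 and 8.36. The 6 epithelial markers, Krt8, Krt18 and Cdh1 among them, summed to 53.87 to 54.24 in S42D, 49.83 to 50.20 in S42A, 54.77 to 55.05 in WT, 64.32 to 65.16 in Tw1KD and 60.75 to 61.55 in parental cells. The 5 leukocyte markers summed to between 26.90 and 27.91 on every array. The 6 fibroblast markers summed to 42.82 to 43.94 in S42D, 42.30 to 43.16 in S42A, 40.24 to 40.94 in WT, 40.66 to 41.72 in Tw1KD and 43.42 to 43.82 in parental cells. Pdgfra moved most among them, averaging 11.38 in S42D, 10.85 in S42A, 9.83 in WT, 9.60 in Tw1KD and 11.29 in parental cells. Dcn came next, at 6.24, 5.86, 5.40, 5.46 and 6.02 in that order, and the collagens and Lum moved less. The 5 endothelial markers summed to 32.68 to 33.26 in S42D against 27.99 to 30.22 elsewhere. Cdh5 was the only endothelial marker called higher in S42D, where it averaged 10.67, against at most 7.26 in another line. The part of these shifts in the mitotic values was not tested.

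Reintroducing Twist1 in any of the 3 forms came with higher expression of nearly the whole mitotic list. Against Tw1KD, limma (Benjamini-Hochberg over all genes, adjusted p under 0.05) called 32 of the 33 members higher in S42D, 32 in S42A and 33 in WT, and none lower. Over all genes 21.7%, 22.8% and 23.5% were called higher in S42D, S42A and WT, and 21.7%, 19.7% and 24.5% lower. Among the 7811 genes at least as bright as Cdc25c (the bright genes below) the shares called higher were 38%, 40.8% and 43.6%. The median log2 difference of the members was 0.56 in S42D, 0.87 in S42A and 0.82 in WT, which is 1.48-fold, 1.82-fold and 1.76-fold. The medians of all genes were -0.04, -0.01 and -0.06. For 10 housekeeping genes, the mean per array relative to Tw1KD was 0.118 to 0.134 in S42D, 0.177 to 0.232 in S42A and 0.100 to 0.133 in WT. Their medians per array were 0.024 to 0.043, 0.065 to 0.120 and 0.048 to 0.088. Members at least 2-fold higher numbered 4 in S42D, 14 in S42A and 10 in WT, where 2.96%, 2.45% and 2.62% of all genes were called and at least 2-fold higher. The 3 comparisons share the Tw1KD arrays. In these bulk samples, more cells in late cell cycle and more RNA per such cell cannot be told apart.

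**Figure D2:**
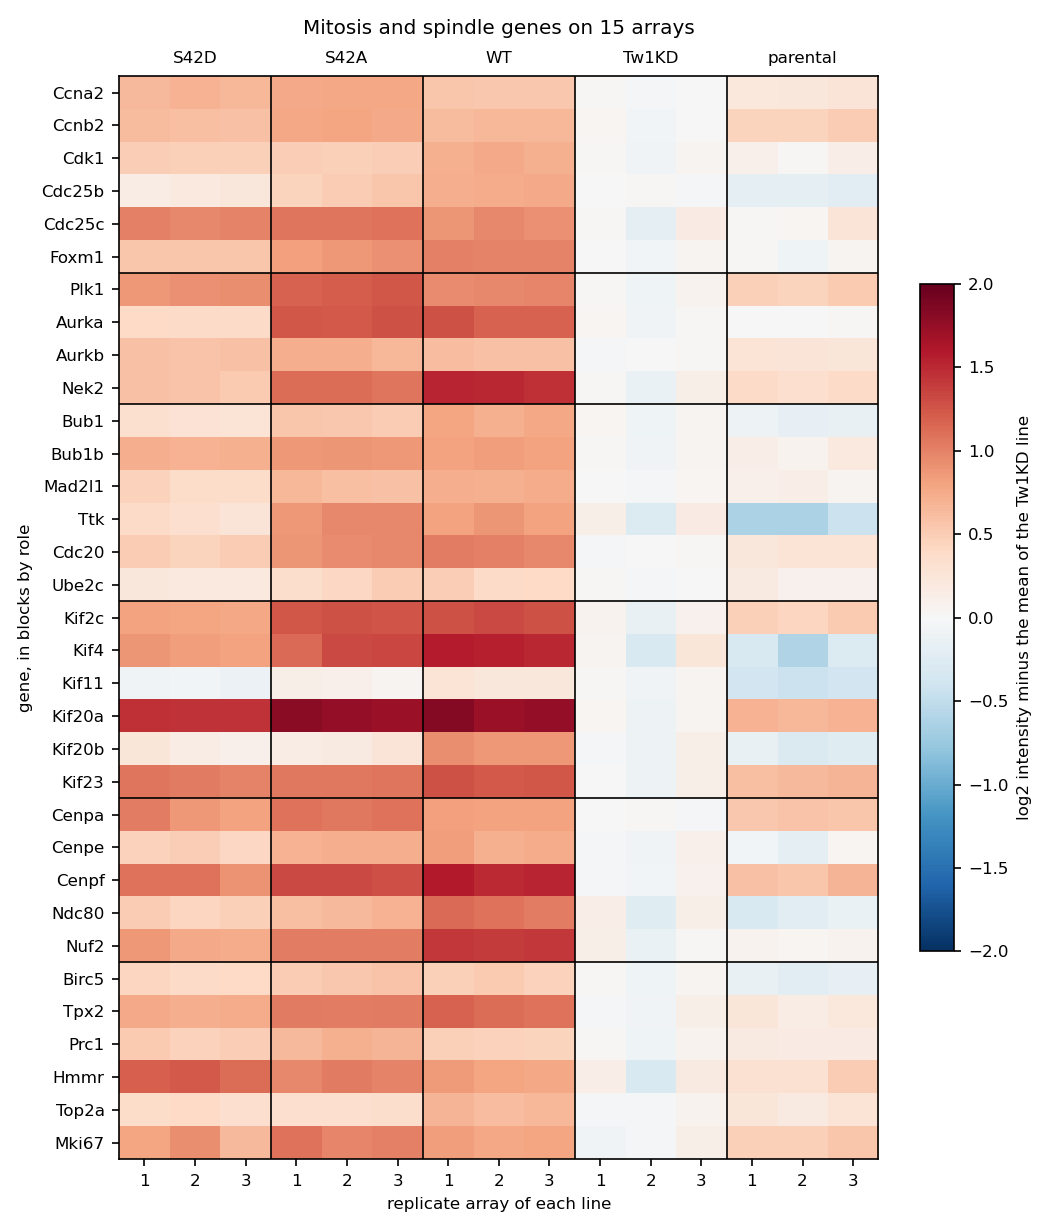
Log2 intensity of the 33 members on each of the 15 arrays minus the mean of the Tw1KD arrays, with genes in blocks by role and arrays in blocks by line (red above and blue below the Tw1KD mean). The S42D, S42A and WT columns are red for nearly every gene, with Kif11 and Kif20b palest in S42D and S42A.

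Tw1KD was the lowest of the 5 lines by mean for 23 members and parental for 10. The highest line was WT for 20 members, S42A for 12 and S42D for 1, Hmmr. Over all genes, Tw1KD was the lowest line for 16.9% and parental for 15%, and WT was the highest for 19.1%, S42A for 18.4% and S42D for 14.4%. Replicate 2 of Tw1KD was the lowest of its 3 arrays for 28 of the 33 members. Without it, the counts called higher against Tw1KD were 31 to 33 in the 3 lines. Each other line also had an array that was lowest most often. These were replicate 3 of S42D (18 members), 1 of S42A (18), 3 of WT (15) and 2 of parental (21).

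The cyclins, Cdk1 and their switches moved together but not equally. Cdk1, the kinase that drives mitosis, read 12.10, 12.08 and 12.08 in S42D, 12.10, 12.08 and 12.09 in S42A, and 12.31, 12.36 and 12.31 in WT, against 11.62, 11.53 and 11.66 in Tw1KD. S42D and S42A were level with each other, and WT stood above both. Against WT the difference was -0.24 ± 0.04 in S42D (SE, limma adjusted p = 0.000197) and -0.24 ± 0.04 in S42A (limma adjusted p = 0.000306). Ccna2, cyclin A, took another order, reading 12.13, 12.18 and 12.15 in S42D, 12.24, 12.25 and 12.26 in S42A, 12.04, 12.02 and 12.02 in WT, and 11.51, 11.45 and 11.48 in Tw1KD. Here S42A was highest and the arrays of the 4 lines did not overlap. The rise in S42A over WT was 0.22 ± 0.03 (limma adjusted p = 0.000106). S42D exceeded WT by 0.12 ± 0.03 (limma adjusted p = 0.00859), a call that was lost when array medians were centred (0.03). Ccnb2, cyclin B2, rose against Tw1KD by 0.61 in S42D, 0.77 in S42A and 0.65 in WT.

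Cdc25b and Cdc25c, phosphatases that activate Cdk1, differed from each other in pattern. Cdc25b read 10.36, 10.41 and 10.43 in S42D, 10.65, 10.72 and 10.77 in S42A, 10.94, 10.95 and 10.96 in WT, and 10.22, 10.23 and 10.18 in Tw1KD. The arrays did not overlap, WT was highest, and S42D differed from WT by -0.55 ± 0.04 (limma adjusted p = 1.97e-08). Cdc25c rose against Tw1KD by 0.99 in S42D, 1.07 in S42A and 0.92 in WT, each ± 0.08. No difference among these 3 lines was called for Cdc25c, with 95% intervals of -0.09 to 0.23 for S42D against WT and -0.01 to 0.32 for S42A against WT. S42A was called higher than WT with array weights (0.15) and with only these lines fitted (0.15). The transcription factor Foxm1 read 10.60, 10.61 and 10.61 in S42D, 10.87, 10.91 and 10.96 in S42A, 11.05, 11.04 and 11.04 in WT, and 10.04, 10 and 10.11 in Tw1KD. Its order was that of Cdc25b, and S42D differed from WT by -0.43 ± 0.04 (limma adjusted p = 1.25e-06).

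Among the mitotic kinases, Aurka and Nek2 rose less in S42D than in S42A and WT. Aurka, the Aurora kinase of the centrosome and spindle pole, read 10.67, 10.65 and 10.66 in S42D, 11.51, 11.50 and 11.55 in S42A, 11.54, 11.46 and 11.46 in WT, 10.32, 10.21 and 10.29 in Tw1KD and 10.26, 10.27 and 10.29 in parental cells. S42A and WT overlapped, and S42D lay between them and the lines without reintroduced Twist1. Against Tw1KD the rise was 0.38 ± 0.04 in S42D, 1.24 ± 0.04 in S42A and 1.21 ± 0.04 in WT. The direct difference was -0.86 ± 0.04 for S42D against S42A (limma adjusted p = 4.11e-10) and -0.83 ± 0.04 for S42D against WT (limma adjusted p = 3.85e-10). Nek2, a kinase that separates centrosomes, was graded. It read 10.15, 10.13 and 10.08 in S42D, 10.67, 10.67 and 10.63 in S42A, 11.08, 11.07 and 11.02 in WT, 9.58, 9.42 and 9.68 in Tw1KD and 9.94, 9.90 and 9.95 in parental cells. The 5 lines did not overlap. The difference from WT was -0.93 ± 0.05 in S42D (limma adjusted p = 3.52e-09) and -0.40 ± 0.05 in S42A (limma adjusted p = 3.29e-05).

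Plk1, which acts at centrosomes, kinetochores and the midbody, read 11.74, 11.78 and 11.80 in S42D, 12.05, 12.09 and 12.12 in S42A, 11.82, 11.83 and 11.85 in WT, and 10.89, 10.79 and 10.94 in Tw1KD. S42A was highest, by 0.26 ± 0.04 over WT (limma adjusted p = 0.000182). S42D and WT differed by -0.06, with a 95% interval of -0.15 to 0.03. Aurkb, the kinase of the chromosomal passenger complex, rose against Tw1KD by 0.58 in S42D, 0.71 in S42A and 0.60 in WT. For Aurkb the S42D and WT arrays differed by -0.02 (95% interval -0.10 to 0.06). The shortfall of S42D against WT was thus called for Aurka and Nek2 and not for Plk1 and Aurkb, although with array medians centred it was called for Plk1 (-0.15) and Aurkb (-0.11) too.

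**Figure D3:**
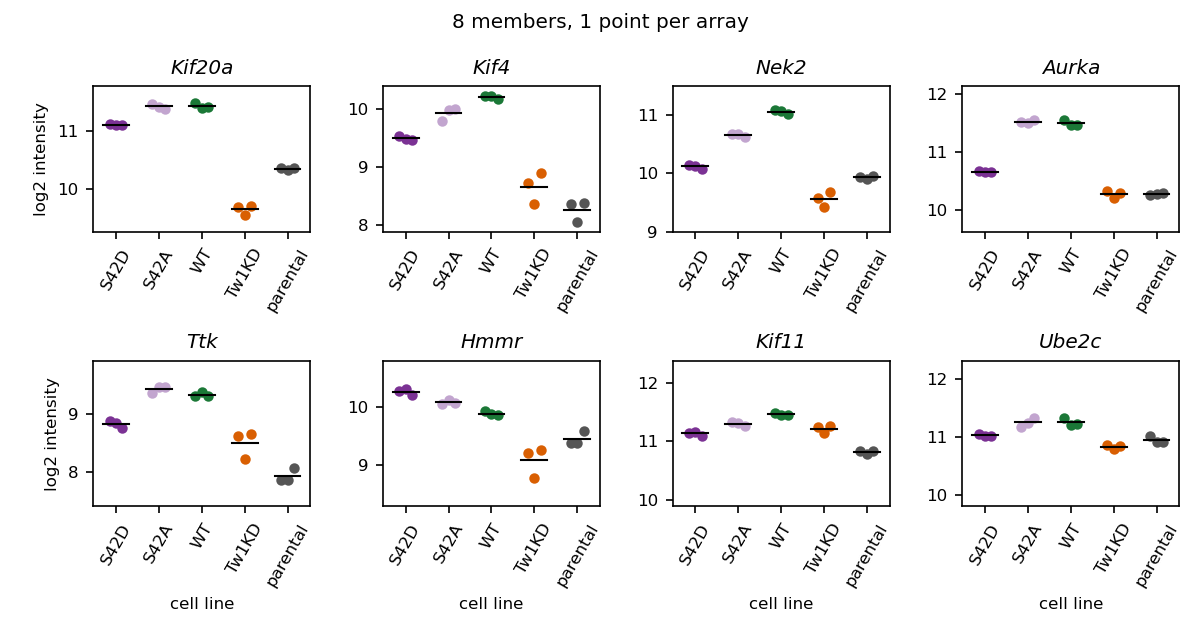
Log2 intensity of 8 members on each array (points) with the mean of each line (bar), all panels spanning the same range of 2.5 on the log2 scale. Aurka, Nek2 and Ttk are clearly lower in S42D than in S42A and WT, Hmmr runs the other way, and Kif11 and Ube2c move little.

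All 6 checkpoint and APC/C members were called lower in S42D than in WT and lower in S42D than in S42A, where 22.6% and 19.1% of all genes were called lower. Ttk (Mps1), the kinase that starts checkpoint signalling at kinetochores, read 8.88, 8.84 and 8.75 in S42D, 9.36, 9.46 and 9.46 in S42A, 9.31, 9.38 and 9.30 in WT, 8.61, 8.23 and 8.66 in Tw1KD and 7.87, 7.86 and 8.07 in parental cells. S42D was the lowest of the 3 lines with reintroduced Twist1, and differed from S42A by -0.60 ± 0.09 (limma adjusted p = 0.000127). Cdc20, the APC/C activator held by the checkpoint, rose against Tw1KD by 0.48 ± 0.04 in S42D, 0.93 ± 0.04 in S42A and 0.99 ± 0.04 in WT. Bub1 rose by 0.30 in S42D, 0.53 in S42A and 0.76 in WT, and Mad2l1 by 0.40, 0.62 and 0.73 in the same order of lines. Bub1b, which encodes BubR1, had the smallest such difference, -0.11 ± 0.04 for S42D against WT (limma adjusted p = 0.0447), a call lost on leaving out any 1 array of either line. Ube2c, the ubiquitin-conjugating enzyme of the APC/C, had among the smallest rises, 0.20 ± 0.05 in S42D, 0.42 ± 0.05 in S42A and 0.42 ± 0.05 in WT. It read 11.06, 11.02 and 11.02 in S42D, against 10.86, 10.79 and 10.84 in Tw1KD and 11.01, 10.91 and 10.92 in parental cells. It was the member not called higher in S42D than in parental cells (0.09 ± 0.05, limma adjusted p = 0.186).

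The kinesins held both the largest and the smallest movements. Kif20a (MKLP2), which carries the passenger complex to the central spindle, read 11.12, 11.11 and 11.10 in S42D, 11.47, 11.42 and 11.38 in S42A, 11.49, 11.39 and 11.41 in WT, 9.70, 9.56 and 9.72 in Tw1KD and 10.36, 10.33 and 10.36 in parental cells. Against Tw1KD it rose by 1.45 ± 0.05 in S42D, 1.77 ± 0.05 in S42A and 1.77 ± 0.05 in WT (limma adjusted p = 7.06e-12, 9.47e-13 and 1.34e-12). It was the largest rise among members in each of the 3 lines. Kif4, a chromosome-bound kinesin, read 9.54, 9.49 and 9.47 in S42D, 9.79, 9.98 and 10 in S42A, 10.23, 10.22 and 10.17 in WT, 8.72, 8.36 and 8.90 in Tw1KD and 8.36, 8.06 and 8.39 in parental cells. The arrays of S42D, S42A and WT did not overlap, with WT highest and S42D lowest. The difference from WT was -0.71 ± 0.12 in S42D (limma adjusted p = 0.000127), while that of S42A was not called (-0.28 ± 0.12, limma adjusted p = 0.0683). That of S42A was called with quantile normalization (-0.24), array weights (-0.235), another variance model (-0.28) and only these lines fitted (-0.28). Kif2c (MCAK), which depolymerises microtubules at kinetochores, rose by 0.79 in S42D, 1.26 in S42A and 1.29 in WT, each ± 0.05. Kif23 (MKLP1), a centralspindlin motor, rose by 1.03, 1.06 and 1.25 in that order of lines.

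Kif11 (Eg5), the motor that pushes spindle poles apart, was the exception. It read 11.15, 11.16 and 11.10 in S42D, 11.33, 11.32 and 11.27 in S42A, 11.49, 11.45 and 11.45 in WT, 11.24, 11.14 and 11.27 in Tw1KD and 10.84, 10.78 and 10.83 in parental cells. The S42D, S42A and Tw1KD arrays lay close together and parental cells stood apart below them. Against Tw1KD the difference was -0.08 ± 0.04 in S42D (limma adjusted p = 0.146), 0.09 ± 0.04 in S42A (limma adjusted p = 0.106) and 0.24 ± 0.04 in WT (limma adjusted p = 0.000174). The S42D value was called lower without replicate 2 of Tw1KD (-0.12). That of S42A was called higher with array weights (0.08) and with another variance model (0.09). Kif20b read 9.18, 9.08 and 9.04 in S42D, 9.08, 9.12 and 9.19 in S42A, 9.87, 9.81 and 9.80 in WT, and 8.91, 8.84 and 9.06 in Tw1KD. S42D differed from WT by -0.73 ± 0.06 (limma adjusted p = 1.46e-07) and S42A by -0.70 ± 0.06 (limma adjusted p = 3.75e-07), so that WT alone was far above Tw1KD. Its calls against Tw1KD in S42D (0.16 ± 0.06, limma adjusted p = 0.0469) and S42A (0.19 ± 0.06, limma adjusted p = 0.0187) were lost without replicate 1 or replicate 2 of Tw1KD. That of S42D was also lost without S42D replicate 1 or 2, and that of S42A without S42A replicate 3.

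**Figure D4:**
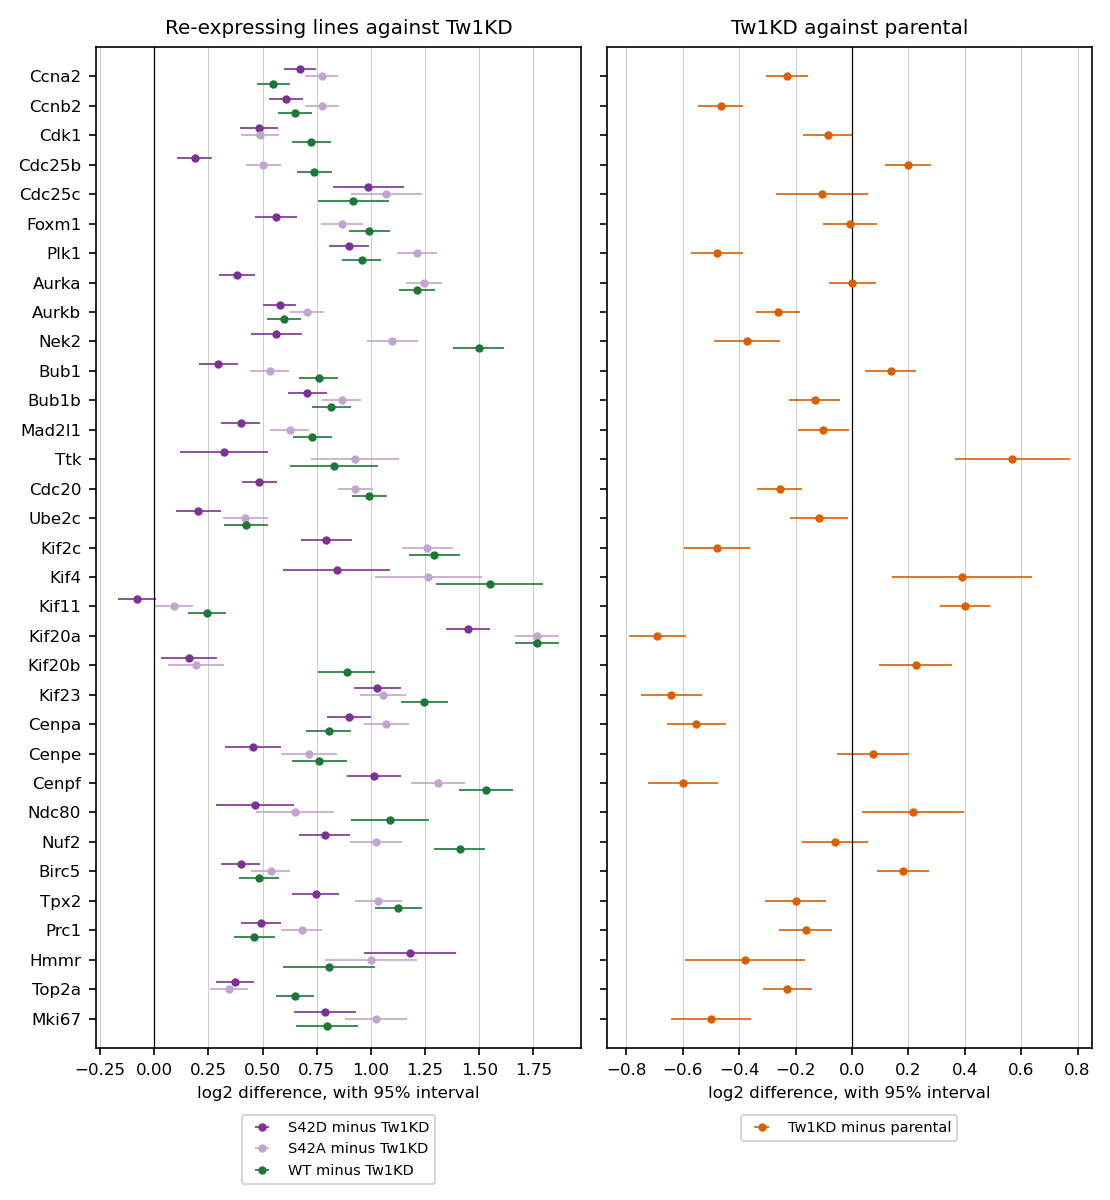
Log2 difference of each member with its 95% interval from the limma fit: S42D, S42A and WT minus Tw1KD (left) and Tw1KD minus parental (right). Differences on the left are above 0 for every member except Kif11 in S42D, whereas those on the right fall on both sides of 0.

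At the kinetochore, Ndc80 and Nuf2, partners in the complex that grips microtubules, were highest in WT. Nuf2 read 10.73, 10.62 and 10.60 in S42D, 10.88, 10.88 and 10.88 in S42A, 11.28, 11.26 and 11.27 in WT, 9.97, 9.72 and 9.89 in Tw1KD and 9.93, 9.90 and 9.93 in parental cells. Ndc80 read 9.12, 9.05 and 9.09 in S42D, 9.22, 9.27 and 9.31 in S42A, 9.75, 9.71 and 9.65 in WT, 8.75, 8.37 and 8.74 in Tw1KD and 8.32, 8.39 and 8.49 in parental cells. In both genes the arrays of S42D, S42A and WT were separate and in that rising order. S42D differed from WT by -0.62 ± 0.05 for Nuf2 (limma adjusted p = 2.61e-07) and -0.62 ± 0.08 for Ndc80 (limma adjusted p = 2.00e-05). S42D against S42A was called for Nuf2 (-0.24 ± 0.05, limma adjusted p = 0.00313) and not for Ndc80 (-0.18 ± 0.08, limma adjusted p = 0.115). Ndc80 was called lower too with array medians centred (-0.26), quantile normalization (-0.20), array weights (-0.20) and only these lines fitted (-0.18). Cenpf, a large kinetochore-associated protein, rose against Tw1KD by 1.02 ± 0.06 in S42D, 1.31 ± 0.06 in S42A and 1.53 ± 0.06 in WT. Cenpe, a kinesin that moves chromosomes to the spindle equator, rose by 0.45, 0.72 and 0.76 in that order. Cenpa, the histone H3 variant that marks centromeres, was highest in S42A, as Plk1 was, with 11.21, 11.04 and 10.99 in S42D, 11.26, 11.23 and 11.27 in S42A, 11, 10.98 and 10.98 in WT, and 10.18, 10.20 and 10.16 in Tw1KD. S42A exceeded WT by 0.27 ± 0.05 for Cenpa (limma adjusted p = 0.000377).

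Among spindle-associated and chromatin proteins, Hmmr ran against the rest. Hmmr, a hyaluronan receptor that also binds spindle microtubules, read 10.27, 10.30 and 10.19 in S42D, 10.04, 10.12 and 10.06 in S42A, 9.92, 9.87 and 9.85 in WT, 9.20, 8.77 and 9.25 in Tw1KD and 9.38, 9.38 and 9.58 in parental cells. It was the member with S42D highest, 0.38 ± 0.10 above WT (limma adjusted p = 0.00588), with no overlap between the lines. The difference of S42D from S42A was not called (0.18 ± 0.10, limma adjusted p = 0.199), but was with array weights (0.16) and with only these lines fitted (0.18). Tpx2, which activates Aurora A on the spindle, rose against Tw1KD by 0.75 ± 0.05 in S42D, 1.03 ± 0.05 in S42A and 1.13 ± 0.05 in WT. Top2a, the topoisomerase that untangles chromosomes, read 11.61, 11.63 and 11.58 in S42D, 11.58, 11.57 and 11.59 in S42A, 11.91, 11.85 and 11.90 in WT, and 11.22, 11.19 and 11.30 in Tw1KD. As for Cdk1, the mutant lines were level and below WT. S42A differed from WT by -0.30 ± 0.04 (limma adjusted p = 2.53e-05). Mki67, the nuclear protein used as a proliferation marker, rose by 0.79 ± 0.07 in S42D, 1.03 ± 0.07 in S42A and 0.80 ± 0.07 in WT. Prc1, which bundles microtubules of the central spindle, rose by 0.49, 0.68 and 0.46, and Birc5 (survivin), of the passenger complex, by 0.40, 0.54 and 0.48, in that order of lines.

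Set directly against S42A and WT, S42D was lower for most members. Against WT, 23 of 33 were called lower in S42D (22.6% of all genes and 42.3% of the bright genes) and 2 higher, Hmmr and Ccna2 (20.7% of all genes), with a member median of -0.32 and an all-gene median of 0.01. Against S42A, 26 were called lower in S42D (19.1% of all genes and 34.8% of the bright genes) and none higher (17.1% of all genes). The member median was -0.23 and the all-gene median -0.03. The largest falls in S42D against WT were those of Nek2, Aurka, Kif20b and Kif4, and against S42A those of Aurka, Ttk, Nek2 and Kif2c (-0.46 ± 0.05, limma adjusted p = 8.35e-06). Mki67, Plk1, Prc1, Aurkb, Ccnb2, Birc5, Cenpa and Cdc25c were not called between S42D and WT. With array medians centred, Plk1, Aurkb, Ccnb2 (-0.14) and Birc5 (-0.18) were called lower in S42D. Cenpa was called higher in S42D with quantile normalization (0.13). S42D had the lower mitotic values beside a Twist1 signal 0.67 above WT and 0.30 above S42A, the second of which was not called with array medians centred (0.22). Against S42A, the call of Birc5 (-0.14) was lost without S42D replicate 2 or S42A replicate 2 or 3, those of Cenpa and Mki67 without S42D replicate 3, and that of Ccna2 (-0.10) without S42D replicate 1 or 3 or any 1 of the S42A arrays.

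S42A and WT differed in both directions. In S42A, 7 members were called higher and 12 lower than in WT, where 20% and 20% of all genes and 31% and 37.1% of the bright genes were called, so the counts are near the background. The member median was -0.05. Higher in S42A were Cenpa, Plk1, Mki67, Ccna2, Prc1, Ccnb2 and Aurkb, by 0.11 to 0.27. Lower in S42A were Kif20b, Ndc80, Nek2, Nuf2, Top2a, Cdk1, Cdc25b, Bub1, Cenpf, Kif23, Kif11 and Foxm1, with differences of -0.13 to -0.70. The calls of Aurkb and Foxm1 were lost without S42A replicate 1 or 2 or any 1 of the WT arrays, that of Ccnb2 without S42A replicate 2 or WT replicate 1, and that of Mki67 without S42A replicate 1.

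After depletion of Twist1, more members were called lower than higher. Against parental cells, 17 members were called lower in Tw1KD (16.4% of all genes and 27.8% of the bright genes) and 7 higher (19.9% and 37.4%), with a member median of -0.13 and an all-gene median of 0.01. The 7 higher are near the share over all genes and below that of the bright genes. Kif20a fell most (-0.69 ± 0.05, limma adjusted p = 3.35e-08), followed by Kif23 (-0.64 ± 0.05), Cenpf (-0.60 ± 0.06), Cenpa (-0.55 ± 0.05) and Mki67 (-0.50 ± 0.07). Plk1, Kif2c, Ccnb2, Hmmr and Nek2 followed with differences of -0.48, -0.48, -0.46, -0.38 and -0.37. Aurkb, Cdc20, Ccna2, Top2a, Tpx2, Prc1 and Bub1b fell less (-0.13 to -0.26), and the calls of Tpx2, Prc1 and Bub1b were lost with array medians centred. For every member called lower, the 3 Tw1KD arrays all lay below the 3 parental arrays.

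The 7 that were higher in Tw1KD were led by Ttk (0.57 ± 0.09, limma adjusted p = 0.000215) and Kif11 (0.40 ± 0.04, limma adjusted p = 2.16e-06). In both the arrays of the lines did not overlap. Kif4 was called higher (0.39 ± 0.12, limma adjusted p = 0.0153) although Tw1KD replicate 2, at 8.36, lay among the parental arrays, and the call was lost without Tw1KD replicate 1 or 3 or parental replicate 2. Kif20b, Cdc25b, Birc5 and Bub1 rose by 0.23, 0.20, 0.18 and 0.14. The call of Bub1 was lost without Tw1KD replicate 1 or 3 or parental replicate 2 or 3, and the fall of Bub1b (-0.13) without Tw1KD replicate 2 or parental replicate 1 or 3. Aurka differed by 0.00 (95% interval -0.09 to 0.09) and Foxm1 by -0.01 (95% interval -0.11 to 0.09).

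The 3 lines with reintroduced Twist1 also exceeded parental cells. Against parental cells, 32 members were called higher in S42D (19.8% of all genes), 33 in S42A (22.6%) and 33 in WT (25%), and none lower (17.2%, 17.7% and 24% of all genes). The member medians were 0.40, 0.70 and 0.74, and the all-gene medians -0.03, 0.00 and -0.05. These comparisons share the parental arrays. The call of Top2a was lost in S42D (0.14) without S42D or parental replicate 2, and in S42A (0.12) without any 1 of the S42A arrays or parental replicate 1 or 2. Called higher than Tw1KD in all 3 lines were 32 of the 33 members (97%), against 2105 of all 19937 genes (10.6%).

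Other genes of mitosis followed the members in part. Their counts against Tw1KD stand beside 21.7%, 22.8% and 23.5% of all genes called higher in S42D, S42A and WT, and 21.7%, 19.7% and 24.5% called lower. Of 23 other spindle and cytokinesis genes, 20 were called higher in S42D than in Tw1KD, 22 in S42A and 23 in WT, and none lower, with medians of 0.51, 0.73 and 0.77. Aspm, a spindle-pole protein, led with 1.33 ± 0.07 in S42D, 1.69 ± 0.07 in S42A and 1.66 ± 0.07 in WT. Of 31 other kinetochore genes, 17 rose and 4 fell in S42D (Cenpu, Cenpk, Cenpn and Cenpi), 21 rose and 1 fell in S42A (Cenpn), and 29 rose and none fell in WT. Spc25, a partner of Ndc80 and Nuf2, led with 1.72 ± 0.10 in S42D, 1.78 ± 0.10 in S42A and 2.04 ± 0.10 in WT. Of 13 condensin and cohesin subunits, 10 rose in S42D, 10 in S42A and 12 in WT. The cohesin subunits Smc1a (-0.41 ± 0.04) and Smc3 (-0.24 ± 0.06) fell in S42D, and none fell in S42A or WT, although 2 did in S42A after quantile normalization.

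Of 17 APC/C subunits and cofactors, 13 rose and 3 fell in S42D, 13 rose and 2 fell in S42A, and 14 rose and 3 fell in WT (1 with array medians centred), so the falls were no larger a share than over all genes. Fbxo5 (Emi1), an APC/C inhibitor, rose by 1.49 ± 0.11 in WT, and Cdc16, a core subunit, fell there (-0.63 ± 0.05). In S42D the largest rise was that of Anapc13 (1.02 ± 0.06), a subunit that was lower in Tw1KD than in parental cells (-1.07 ± 0.06). Of 12 brakes and partners of mitotic entry, 11 rose in S42D, 9 in S42A and 12 in WT, and none fell. Melk, a kinase of proliferating cells, led in S42D (0.82 ± 0.04) and S42A (1.25 ± 0.04), and cyclin F (Ccnf) in WT (1.47 ± 0.05).

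The regulators that sit on the promoters were called in both directions. Of 15 MuvB, DREAM, B-Myb and NF-Y genes, 4 rose and 5 fell in S42D against Tw1KD, 10 rose and 4 fell in S42A, and 7 rose and 3 fell in WT (7 and 6 after quantile normalization). Beside the shares of all genes given above, the S42D counts and the falls in S42A and WT are near the background. The rises in WT are near the share of the bright genes called higher there (43.6%). Mybl2, which encodes B-Myb, was -0.29 ± 0.06 in S42D (limma adjusted p = 0.00128), 0.65 ± 0.06 in S42A (limma adjusted p = 5.63e-07) and 0.96 ± 0.06 in WT (limma adjusted p = 8.66e-09), so its direction differed between S42D and the other lines. S42D against WT gave -1.25 ± 0.06 for Mybl2 (limma adjusted p = 5.64e-10). E2f4, a DREAM subunit, fell in all 3 lines, most in S42D (-0.76 ± 0.04). Rbl2 also fell in all 3, by -0.29 in S42D, -0.51 in S42A and -0.42 in WT. Its relative Rbl1 went the other way, rising by 0.355 in S42D, 0.73 in S42A and 0.80 in WT. Lin54 and Nfyc were likewise called higher in all 3 lines. Tfdp2 had the largest fall in S42A (-0.65 ± 0.07).

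DNA replication genes, which are transcribed earlier in the cycle, had the other balance after depletion. Of 41 measured, 24 were called higher in Tw1KD than in parental cells and 4 lower, with a median of 0.20 (19.9% and 16.4% of all genes), beside 7 higher and 17 lower of the 33 mitotic members. Other kinetochore genes leaned the same way as replication genes, with 14 higher and 3 lower (14 and 8 after quantile normalization). Other spindle genes leaned with the members, with 4 higher and 12 lower (5 and 5 with array medians centred). Aspm (-0.90 ± 0.07) and the licensing factor Cdt1 (0.88 ± 0.04) were the extremes of the spindle and replication lists.

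With Twist1 put back, mitotic and replication medians were alike in WT and apart in the mutant lines. The member median per array, relative to the Tw1KD mean, was 0.59, 0.57 and 0.57 in S42D, 0.86, 0.88 and 0.92 in S42A, 0.84, 0.83 and 0.80 in WT, 0.02, -0.08 and 0.06 in Tw1KD, and 0.18, 0.14 and 0.19 in parental cells. The replication median was 0.31, 0.28 and 0.32 in S42D, 0.36, 0.53 and 0.46 in S42A, 0.81, 0.79 and 0.80 in WT, 0.03, -0.07 and 0.05 in Tw1KD, and -0.21, -0.25 and -0.20 in parental cells. S42A lay near WT for mitotic genes and below it for replication genes. Against WT, replication genes were called lower for 31 and higher for 5 of 41 in S42D, and lower for 25 and higher for 8 in S42A. Over all genes 22.6% were lower and 20.7% higher in S42D, and 20% and 20% in S42A, so the 8 are at the background. No test of the difference between the lists was made.

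**Figure D5:**
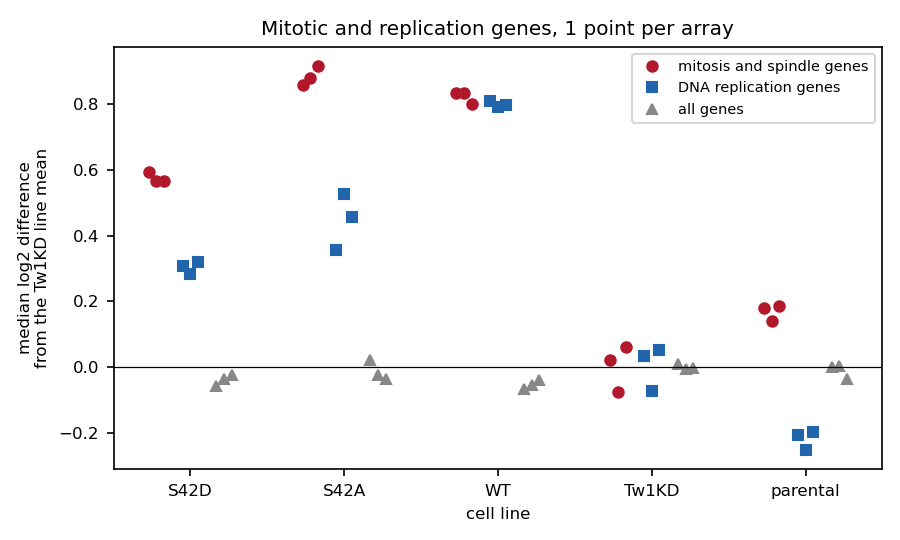
Median log2 difference from the Tw1KD line mean on each array, for the mitosis and spindle genes (circles), DNA replication genes (squares) and all genes (triangles), by line. Mitotic medians are highest in S42A and WT, replication medians are highest in WT and lowest in parental cells, and the medians of all genes stay near 0.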

How the data were processed

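Total RNA (100 ng) was labelled with the Ambion WT Expression kit, per the labels' protocols. The deposited values are log2 intensities per probe set, normalized by the authors in a way that is not given in the sources used here. R 2.10.0 and affy are named, per the submitters' processing notes. No raw scans were used. Of 34760 probe sets, 21640 carried 1 gene symbol, 1321 several and 11799 none. Symbols were updated through gene numbers to GRCm38.p6, and the brightest probe set per gene was kept, giving 19937 genes.

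Differences were fitted with limma 3.58.1 under R 4.3.3 with a mean per line over all 15 arrays, 10 comparisons, 2-sided, Benjamini-Hochberg over all genes. The script was tested on simulated data. Members and gene lists were chosen with earlier results of these data known. All measured members are described. From the other lists, only some of the genes with the largest called differences and some of those called against the majority are named. Levels of different probe sets were compared only to rank probe sets and genes by brightness. They were added up only in the marker sums. With 3 arrays a line, the number of arrays limits the precision. Alternatives were other scalings, probe set rules, dim-gene filters, variance models, a replicate block and leaving out arrays.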

Additional observations from a re-analysis of the deposited data

How the results depend on the processing

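No called difference of a member changed direction under any alternative run, and the 30 sign changes seen were of values not called under either setting. Counts of members kept within 1.5 times the main count except for a few small ones. For Tw1KD against parental, 4 members in place of 7 were called higher when only those lines were fitted. For S42D against Tw1KD, 1 member, Kif11, was called lower with array medians centred, with quantile normalization, with array weights and without Tw1KD replicate 2. For S42D against WT, 1 in place of 2 was called higher with array medians centred. For S42D against S42A, 1 was called higher with array weights and with only those lines fitted. Leaving out single arrays gave 31 to 32 members higher in S42D and 31 to 32 in S42A than in Tw1KD, 33 in WT, 0 to 1 lower in S42D, 5 to 8 higher and 16 to 17 lower in Tw1KD than in parental cells, 2 to 3 higher and 22 lower in S42D than in WT, 23 to 25 lower and 0 higher in S42D than in S42A, and 5 to 7 higher and 11 to 12 lower in S42A than in WT. Over all members and comparisons these settings lost 53 calls and gained 5. Fitting only the lines compared lost 15 and gained 5, array centring lost 7 and gained 7, and quantile normalization lost 6 and gained 10. Centring moved the median of all genes for WT against parental from -0.05 to 0.05, and for S42D against S42A from -0.03 to -0.11.

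Replicate numbers did not pair the arrays over the 5 lines: deviations from the line means correlated by -0.39 to 0.42 between arrays of the same number (median -0.04 over 30 pairs). Arrays of other numbers correlated by -0.44 to 0.43 (median 0.04 over 60 pairs). Between parental and Tw1KD, the correlation was 0.02 for replicate 1, 0.39 for replicate 2 and 0.42 for replicate 3. With the replicate number as a block, 7 members were higher and 17 lower in Tw1KD than in parental cells, 32, 32 and 33 higher in S42D, S42A and WT than in Tw1KD, and 22 and 25 lower in S42D than in WT and S42A. The block lost 2 calls, Bub1b for S42D against WT and Ccna2 for S42D against S42A.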
